A study of Chlorocebus aethiops with 12 samples.

Results

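The effect of dexamethasone (Dex) was measured in COS-1 cells transfected with the glucocorticoid receptor (GR) alone, on 6 of the 12 one-colour arrays of the series. The 6 arrays were chosen by their labels as the 3 GR cultures given Dex and the 3 given vehicle. COS-1 is a fibroblast-like line from African green monkey kidney. All 6 cultures carried transfected GR and none carried MDFIC, a MyoD family inhibitor domain protein that the other 6 cultures received together with GR. Medium with charcoal-stripped serum was added the day after transfection. Treatment with 100 nM Dex or vehicle began 48 h after transfection and lasted 6 h, and each group held 3 biological replicates. No culture of the series lacked transfected GR, so a response through the transfected GR and one that needs no added receptor cannot be told apart. The labels do not give the species of the GR construct or whether the cultures were made on the same day.

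GR is a nuclear receptor that stays in the cytoplasm in a complex with chaperones until a glucocorticoid binds it. The hormone-bound receptor moves to the nucleus, where it raises transcription of some genes by binding DNA directly and lowers that of others, often through contact with other transcription factors. Dex is a synthetic glucocorticoid that binds GR tightly. After a few hours, transcript changes can include direct targets of GR and the first effects that follow from them.

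The array carries probes designed for human transcripts, and each probe is labelled by an accession. Gene symbols are not paired with the accessions in the files and no table of names was used here, so transcripts are given by accession and gene functions are not described. For the same reason the level of GR itself and the markers of the labelled cell type were not checked. Accessions starting with NM are protein-coding RefSeq transcripts, and those starting with NR are non-coding ones. Levels are the log2 processed signal minus the log2 of the array's 75th percentile, so that 0 is the 75th percentile of that array. Probes differ in how brightly they read, so that a dim or bright signal describes the probe on these arrays and not how abundant one transcript is against another.

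Of the 43376 spots that are no controls, 70.3% to 74.9% per array of the 6 read well above background, and the 75th percentile of the processed signal lay between 798 and 948. The 3 vehicle arrays and Dex replicate 1 shared slide 1, while Dex replicates 2 and 3 lay on slide 2. Slide is therefore partly confounded with Dex, and differences within slide 1 are given beside the main ones. A transcript was tested where all 3 arrays of either group read its probe well above background, which left 22801 of 32379 accessions. The median absolute difference between 2 vehicle arrays ranged from 0.0787 to 0.0967 on the log2 scale over the transcripts above background on all 6 arrays. Between 2 Dex arrays it ranged from 0.0888 to 0.120, and between a vehicle and a Dex array from 0.111 to 0.146.

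With Dex, 1080 transcripts rose and 686 fell (limma, Benjamini-Hochberg adjusted p under 0.05), which is 4.74% and 3.01% of those tested and 7.75% together. Both counts dropped with 1 array left out, and the falls more in proportion except without Dex replicate 3. Without vehicle replicates 1, 2 and 3 there were 370, 499 and 410 falls and 799, 810 and 724 rises. Without Dex replicates 1, 2 and 3 there were 413, 397 and 682 falls and 726, 746 and 967 rises. The 6 GR arrays fitted alone gave 375 falls and 832 rises. The share of calls that were rises, 61.2% with all arrays, lay between 58.6% and 68.3% with 1 array left out and was 68.9% with the 6 arrays alone. Rises were also the larger changes. The median rise was 0.45 on the log2 scale and the median fall -0.31, against a median standard error of 0.064 over all called transcripts. By at least 1 on the log2 scale, a doubling or halving, 151 rose and 15 fell. For a change of at least 2, the counts were 31 that rose and 2 that fell. Of the 151, 91 were well above background on all 6 arrays and 38 on no vehicle array, so that the size of the latter is only bounded. Of the 31, 12 were above background on all 6 arrays, and of the 2 falls 0. With normexp and quantile scaling together 32 rose and 6 fell by at least 1, and 2 rose and 0 fell by at least 2, while 1496 transcripts were called. For all 1080 rises the lowest Dex array lay above the highest vehicle array, and for all 686 falls the highest Dex array lay below the lowest vehicle array. Groups that did not overlap were found for 26.9% of all transcripts tested, so this property was common well beyond the called ones.

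**Figure D1:**
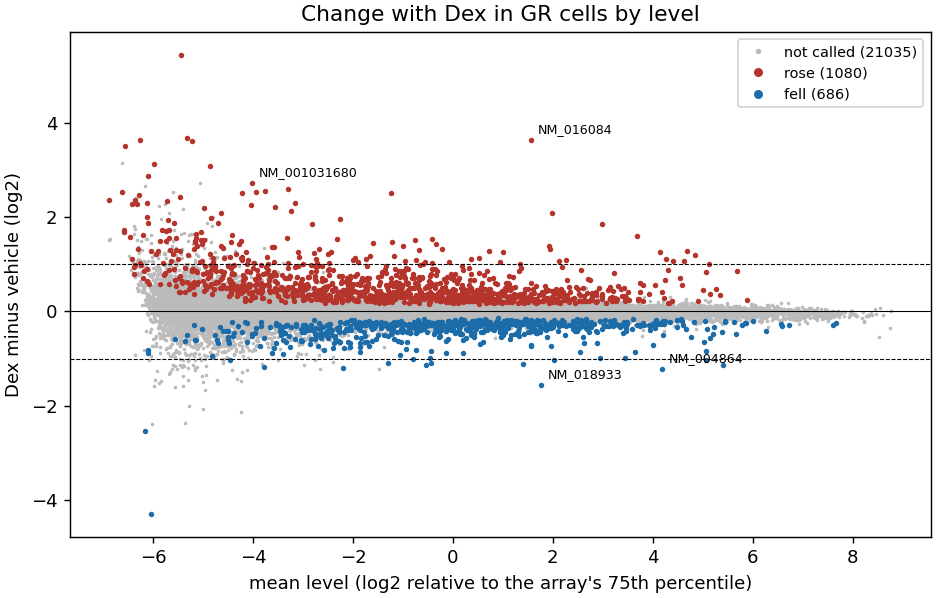
Change with Dex in GR cells (Dex minus vehicle, log2, vertical axis) against the mean level of the 6 arrays' 2 groups (log2, scaled to the 75th percentile of each array, horizontal axis), 1 point per transcript. Red points are the 1080 transcripts that rose, blue points the 686 that fell and grey points those not called, and the dashed lines mark a change of 1 in either direction. Red points reach much farther from 0 than blue ones, above all on the left, where signals are low.

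The transcripts described singly are NM accessions, 2 with the largest rises and 2 with the largest falls, that were well above background on all 6 arrays and called. The rule also asked that the vehicle and Dex arrays of GR cells did not overlap. For the transcripts below, the lack of overlap therefore follows from the choice and is no separate result. Under that rule 825 transcripts rose and 587 fell, 78 of them by at least 1 on the log2 scale upwards and 9 downwards.

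NM_016084 rose the most of these. Its level on the vehicle arrays was -0.16, -0.34 and -0.25, and on the Dex arrays 3.39, 3.39 and 3.34. Every Dex array lay far above every vehicle array, and Dex replicate 1, on the slide of the vehicle arrays, read like the Dex arrays of slide 2. The mean went from -0.25 ± 0.09 to 3.37 ± 0.03 (SD, n = 3), a 12.3-fold rise. The difference was 3.62 ± 0.06 on the log2 scale (SE, limma, Benjamini-Hochberg adjusted p = 1.36e-09). Within slide 1 alone it was 3.64. A second probe of the same accession rose by 3.77 (limma, Benjamini-Hochberg adjusted p = 1.28e-08), so that separate probes read the same direction.

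NM_001031680 rose from a low level. It read -5.52, -5.20 and -5.44 on the vehicle arrays and -2.68, -2.63 and -2.69 on the Dex arrays. The Dex arrays stood close together and well above all vehicle arrays. The mean went from -5.39 ± 0.17 to -2.67 ± 0.03 (SD, n = 3), a 6.59-fold rise, with a difference of 2.72 ± 0.28 (SE, limma, Benjamini-Hochberg adjusted p = 0.000306). The difference within slide 1 was 2.71. The size, not the call, changed with normexp correction (offset 50) together with quantile scaling, which gave a difference of 0.89 (limma, Benjamini-Hochberg adjusted p = 1.22e-06).

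NM_018933 had the largest fall under the rule. Vehicle arrays read 2.75, 2.50 and 2.38 and Dex arrays 1.01, 0.95 and 0.97, with no overlap and with a wider spread among the vehicle arrays than among the Dex arrays. The mean went from 2.54 ± 0.19 to 0.98 ± 0.03 (SD, n = 3), 2.96-fold lower with Dex. The difference was -1.57 ± 0.12 (SE, limma, Benjamini-Hochberg adjusted p = 2.94e-05) and -1.53 within slide 1.

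NM_004864, the next largest fall, had a bright signal. Its vehicle arrays read 4.70, 4.92 and 4.75 and its Dex arrays 3.60, 3.62 and 3.48. The groups did not overlap, although both stayed far above the 75th percentile of their arrays. The mean went from 4.79 ± 0.12 to 3.57 ± 0.08 (SD, n = 3), 2.34-fold lower with Dex. The difference was -1.23 ± 0.09 (SE, limma, Benjamini-Hochberg adjusted p = 2.74e-05) and -1.19 within slide 1.

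The same transcripts rose and fell with Dex in the cells that also carried MDFIC, measured on other arrays. NM_016084 changed by 3.99, NM_001031680 by 3.30, NM_018933 by -1.84 and NM_004864 by -1.55 on the log2 scale (limma, Benjamini-Hochberg adjusted p from 5.43e-10 to 6.22e-05). None of the 4 differences from the effect in GR cells passed the test (limma interaction, Benjamini-Hochberg adjusted p from 0.286 to 0.636). For NM_016084 the difference of the effects was 0.36 ± 0.08 (SE) with an adjusted p of 0.286 in limma. NM_001031680 was not well above background on 2 of the 3 vehicle arrays of GR+MDFIC cells, so its effect there is not a measured size. All 4 changes read larger than in GR cells. Over all 22801 transcripts 15 passed that test, 0.0658%, and among them were 2 of the 1080 that rose and 1 of the 686 that fell in GR cells. Without adjustment, the limma interaction p was under 0.05 for 2251 of all transcripts, 172 of the rises and 73 of the falls. It was so for 53 of the 151 rises and 9 of the 15 falls of at least 1. These sets were chosen on the effect in GR cells, which is part of the interaction, so their shares are a description. The arrays of GR+MDFIC cells lay on slides 2 and 3, and the part of slide in these differences was not tested.

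**Figure D2:**
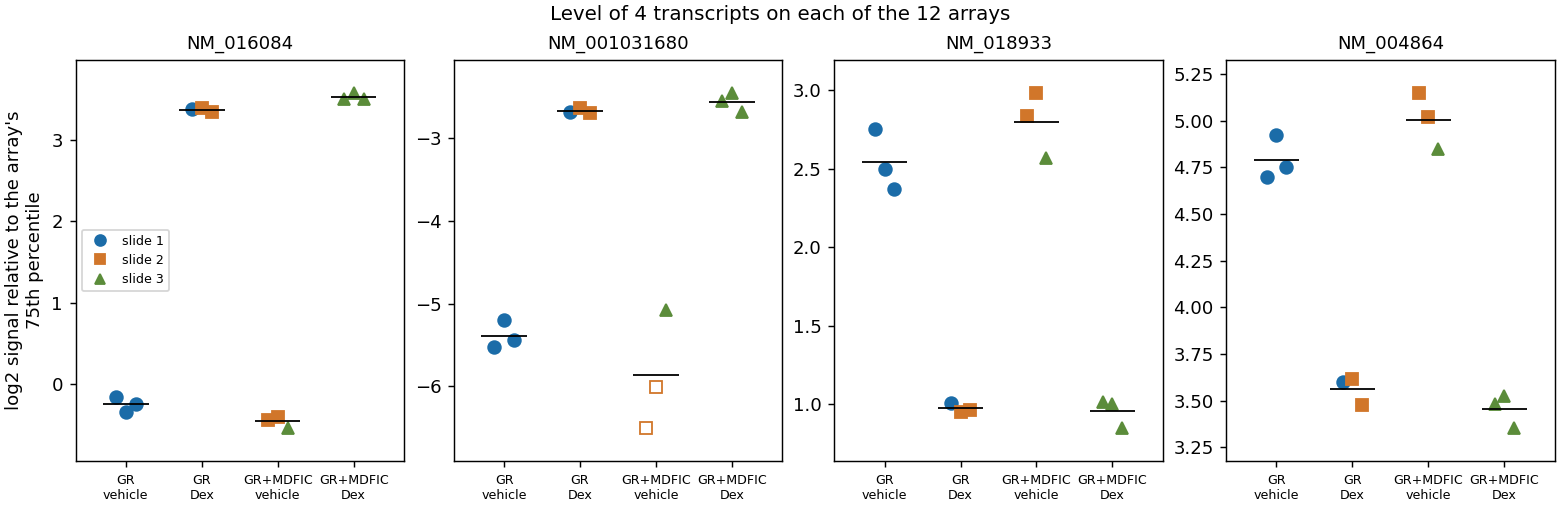
Level of 4 transcripts (log2, scaled to the 75th percentile of each array, vertical axis) on each of the 12 arrays, grouped by transfection and treatment; bars are group means of 3 arrays, symbols and colours mark the slide, and open symbols are arrays on which the probe was not well above background. In GR cells all Dex arrays lie above all vehicle arrays for NM_016084 and NM_001031680 and below them for NM_018933 and NM_004864, as the rule of choice required. The Dex array of slide 1 sits with those of slide 2.

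Several transcripts appeared or disappeared at the limit of detection. Among those tested, 157 were well above background on no vehicle array but on all 3 Dex arrays, and 50 of these passed the test as rises. The opposite pattern was seen for 6 transcripts, 3 of which passed as falls. The 157 entered the test only through their Dex arrays and the 6 only through their vehicle arrays. Their calls thus partly follow from the filter, and their shares cannot be set against the 4.74% and 3.01% of all tested transcripts that rose and fell. The share of spots above background was 71.8%, 74.9% and 70.3% on the vehicle arrays and 74.9%, 74.7% and 74.6% on the Dex arrays. The shares of vehicle replicates 1 and 3 were lower than those of the Dex arrays, and their part in the 157 was not tested. For the 50 rises the fold is only bounded. The bound set the Dex mean against the lowest signal that counted as above background on each vehicle array or the probe's own signal, whichever was higher. Where the own signal was higher on all vehicle arrays, the bound is the plain difference, so it is an estimate and not a guaranteed minimum. The median bound was 1.75-fold, 19 transcripts had a bound of at least 2-fold, and the highest was 10.5-fold. Of the 3 falls, the highest bound was 5.26-fold lower.

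Called changes were also counted by probe signal, over the 21397 transcripts above background on all 6 arrays, split into 3 equal parts by mean signal. The low part held 270 rises and 86 falls, the middle part 452 and 302, and the high part 271 and 294. In this fit falls thus outnumbered rises by a small margin among probes with a strong signal and were fewer than rises among the others. Whether that order holds with arrays left out was not tested. Of the 91 rises of at least 1 in these transcripts, 43 were in the low part, 28 in the middle and 20 in the high part, and the falls of that size numbered 2, 5 and 6. The median called rise was 0.58, 0.39 and 0.34 on the log2 scale in the same order, and the median standard error was 0.179, 0.0748 and 0.0606. A change had to be larger to be called in the low part, where the spread was wider.

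Protein-coding transcripts made up most of the response, 874 of the 1080 that rose and 591 of the 686 that fell. Of 15776 NM accessions tested, 5.54% rose and 3.75% fell. Of 804 NR accessions 3.98% rose and 1.74% fell. Ensembl transcripts gave 4.31% and 2.06% of 1068, and probes labelled by no accession but their own name gave 2.02% and 1.11% of 2520. Rises outnumbered falls in each of these 4 classes. The median standard error was 0.075 for NM, 0.148 for NR and 0.131 for Ensembl transcripts and 0.0984 for probes with only their own name, so that the share of calls did not follow the spread in order. The differences between classes were not tested.

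Other probes for the same accession gave a second reading of the same RNA. For 273 of the transcripts that rose, 320 further probes passed the filter, and 87.5% of them were higher with Dex and 35.9% passed the test in that direction. For 197 of those that fell, 240 further probes were read, of which 85.4% were lower and 27.5% passed. Over all 6246 further probes, called or not, 65.4% had the sign of the brightest probe, 5.72% passed with that sign and 6.42% in either direction. Opposite calls were made by 1 further probe of the rising and 2 of the falling accessions. Among rises of at least 1, 28 of 29 further probes were higher and 19 passed. The probe standing for each accession was the brightest, and the further probes were dimmer and changed less, with a median of 0.31 against 0.40 for rises and -0.19 against -0.29 for falls. The brightest probes were selected here as called and the further ones were not, so these medians are not a like comparison.

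Within slide 1 there is a single Dex array, replicate 1, to set against the 3 vehicle arrays. That array took part in making the calls, so its values for them are a description. It lay above all vehicle arrays for every called rise and below them for every called fall, although over all transcripts tested it also did so for 37.1% upwards and 28.4% downwards. Over the rises its median difference from the vehicle mean was 0.48, against 0.45 for the Dex arrays of slide 2. Over the falls it was -0.33 against -0.31. For the rises of at least 1 both medians were 1.36. A fit with slide as a block, which takes the Dex effect from slide 1 alone, called 916 transcripts, 664 that rose and 252 that fell. Only 742 of the 1766 calls made without the block were among them, so most of the 1766 were not called with it. The block fit rests on a single Dex array, and why the other calls were lost was not tested. Of the large changes, 118 of the 151 rises and 12 of the 15 falls also passed with the block. The count of 1766 calls was 1169, 1309 and 1134 without vehicle replicates 1, 2 and 3. It was 1139, 1143 and 1649 without Dex replicates 1, 2 and 3.

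Single arrays differed from the vehicle mean by amounts that put the Dex response in proportion. Among transcripts above background on all 6 arrays, Dex replicates 1, 2 and 3 had 174, 156 and 145 that were at least 1 above the vehicle mean on the log2 scale. The vehicle arrays, each set against the mean of the other 2, had 98, 49 and 28. Every Dex array thus had more high transcripts than any vehicle array. Downwards, Dex replicates 1, 2 and 3 had 24, 174 and 73, and the vehicle arrays 18, 27 and 68. The count for Dex replicate 1, on slide 1, lay within the range of the vehicle arrays, and that for Dex replicate 2 stood apart. These are counts with no test.

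**Figure D3:**
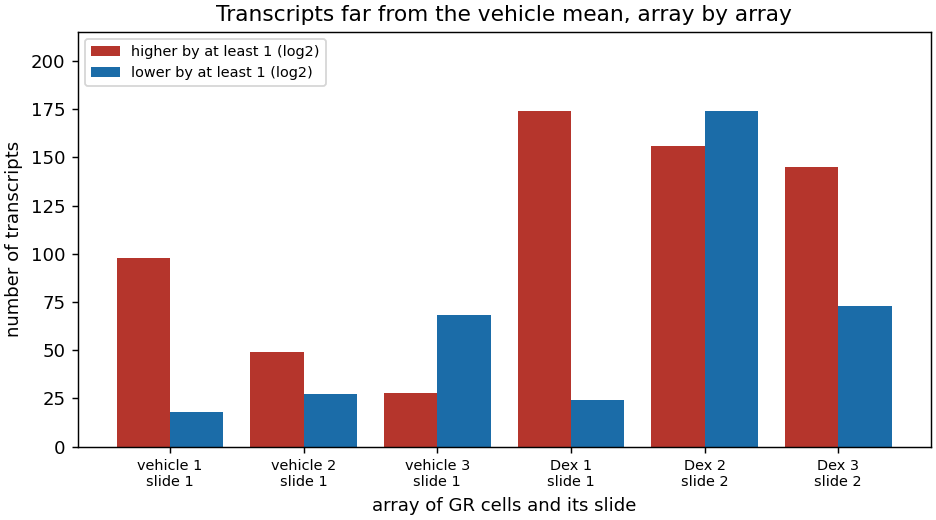
Number of transcripts (vertical axis) at least 1 above (red) or at least 1 below (blue) the vehicle mean on the log2 scale, for each array of GR cells with its slide (horizontal axis), over transcripts above background on all 6 arrays; each vehicle array is set against the other 2. The red bars of the Dex arrays, 145 to 174, are all above those of the vehicle arrays, 28 to 98, while the blue bars overlap.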

How the data were processed

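RNA of 12 cultures was labelled with Cy3 from 500 ng each and hybridised to Agilent arrays with 45015 spots, 1639 of them controls. The deposited intensity values are linear processed signals, from which Feature Extraction subtracted background and spatial trends, per the file headers, with no scaling between arrays. Its version is 12 per the submitters' processing notes (12.0.0.7 for the GR arrays, per the file headers). Version 12.0.3.1 also occurs in the headers, outside the GR arrays, and its part in the comparison with GR+MDFIC cells was not tested. The deposited series table holds the same signals (largest difference 0; array medians 35.2 to 86.9). Other deposited values are flags of 0 or 1 per spot, per the file headers.

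The log2 signal minus the array's 75th percentile was averaged over a probe's unflagged spots. This left 16 missing values on the 6 GR arrays among tested transcripts. Transcripts passed with at least 2 unflagged arrays per group, and the brightest of an accession's probes stood for it (4964 accessions had several). No tested probe was saturated on a GR array. A group-means model over all 12 arrays was fitted in limma 3.58.1 (R 4.3.3), with 8 residual degrees of freedom, or 6 with slide as a block, and tests were two-sided with Benjamini-Hochberg adjustment over all 22801 transcripts. The fitting was tested on simulated data with independent noise and no slide effect, so that test does not bear on the part of slide. Data were read with the data.table package (version 1.17.8) and drawn with matplotlib 3.10.9 (Python 3.11.15).

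The comparison, filter and lists were chosen with earlier results of these data known. The rule for single transcripts asked for gene symbols and for up to 15 rises and falls, bounds and members of gene lists. With accessions only, it was applied to NM accessions, as the rule allowed. The limit to 2 rises and 2 falls, with no bounded transcript given singly, was a separate choice. The gene and marker lists, which use symbols, were not used here. Normexp used spot medians, where spot means had been planned. Alternatives were other scalings, background correction, filters, probe summaries, array sets, slide or replicate as blocks, variance models, thresholds, and each array left out.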

Additional observations from a re-analysis of the deposited data

How the results depend on the processing

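The 4 transcripts given singly kept their direction and stayed past the threshold in limma under each of the 19 alternatives run for them. They were chosen as the largest such changes in these same data, so this is no separate support for them. The deposited series table holds the same signals and could give no other result. Averaging an accession's probes could alter the change of NM_016084 only, which alone had a further probe. Their changes ranged from 3.39 to 3.69 for NM_016084, 0.89 to 2.81 for NM_001031680, -1.65 to -1.46 for NM_018933 and -1.27 to -1.16 for NM_004864. The count of 1766 calls was 916 with slide as a fixed block, which rests on 1 Dex array. It was 878 at an adjusted p under 0.01 and 166 with a change of at least 1 required. Leaving out each array in turn gave 1134 to 1649 calls, with 130 to 147 rises and 11 to 22 falls of at least 1. The other alternatives gave counts between 1207 with the 6 GR arrays alone and 2001 with an intensity trend and robust variance. Of these, 1401 came with median scaling and 1262 with no filter on dim probes. Same-numbered vehicle and Dex samples deviated together with correlations of 0.0663, 0.0051 and 0.14, so the numbers were not taken to pair the samples, and the replicate block gave 1702 calls, 1508 of them among the 1766. The low signal of dim probes limits how well their fold is known.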
